A study of Rattus norvegicus with 20 samples.

Results

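Genes that remove introns from messenger RNA were described in the nucleus accumbens shell, a ventral striatal region involved in reward, together with Cwc25, a splicing factor whose level was higher in animals that had drunk ethanol. Members were all genes whose symbol in the platform's annotation begins with Srsf, Hnrnp, Sf3a, Sf3b, Prpf, Snrp or Cwc, and 5 further genes (Srrm1, Srrm2, Rbm39, U2af1 and U2af2). This gave 67 of 14217 genes on the array, measured by 112 probe sets that name 1 gene. Where a gene had several probe sets, the one with the highest mean over the 20 arrays represents it. The family was assembled because the ethanol difference of Cwc25 was already known, so that difference is a description and not a test.

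The ethanol animals (n = 10) were rats of the alcohol-preferring (P) line, which was selected over generations for drinking ethanol by choice, and could drink 15 and 30% ethanol as adolescents. The water animals (n = 10) were P rats that drank only water, so both groups carry the same selected background. Each animal gave 1 array made from 50 ng of total RNA with a 3' labelling kit, and the titles number the animals 1 to 10 and 12 to 21. Values are RMA values on the log2 scale, in which background, array and probe effects have been fitted. They compare a probe set between animals and are not used here to compare genes with each other.

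Splicing is carried out by the spliceosome, which is built from small nuclear ribonucleoproteins (snRNPs) and many accessory proteins on each intron and is remodelled between its steps. SR proteins bind exons and mostly help splice sites to be used, while heterogeneous nuclear ribonucleoproteins (hnRNPs) coat nascent RNA and often hold splice sites back. Neurons make wide use of alternative splicing, and several of these proteins also regulate their own messages through alternative exons and retained introns.

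Of the 67 members, 65 lay above the filter on dim probe sets (a mean of 6.65 over the 20 arrays) and were tested. Srsf3 and Srsf7, both SR proteins, lay below it. Srsf3 averaged 5.78 ± 0.13 in ethanol and 5.63 ± 0.30 in water, and Srsf7 averaged 6.24 ± 0.11 in ethanol and 6.14 ± 0.13 in water (SD, n = 10 each), without a test. By role, 11 measured members are SR or SR-related genes, 17 are hnRNPs, 12 act at the 3' splice site, 10 are snRNP proteins, and 15 carry Prp or Cwc names taken over from yeast. Srsf7-ps4 is among the SR genes by its symbol, which is that of a pseudogene, and its probes may share sequence with Srsf7.

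The arrays differed in their 3' and 5' control probe sets and in tissue markers, and water arrays varied more. Array medians lay between 7.93 and 7.98. Water animals 12, 17 and 20 stood apart by their lower correlation with the other arrays. The mean of 14 measured of 15 listed markers of medium spiny neurons, the main neurons of the labelled tissue (Drd1 and Drd2 among them), ranged from 12.64 to 13.22 in ethanol and from 11.87 to 13.21 in water, where animals 17, 19 and 20 were lowest at 12.15, 12.40 and 11.87. The same 3 animals were highest for 4 measured of 12 listed markers of septum, pallidum and cortex (8.55, 8.58 and 8.65, with 8.31 or less elsewhere). Their oligodendrocyte list means were 11.98, 11.81 and 11.83, against a median of 11.26 in ethanol and 11.46 in water. They did not stand apart by this list, as ethanol animal 8 lay at 11.94 and water animal 16 at 11.73. Both lists also differed in direction between the groups. All 14 measured spiny neuron markers were higher in ethanol (median difference 0.25), and all 12 measured oligodendrocyte markers were lower (median -0.16). After adjustment over all probe sets, 0 of these markers passed (limma). The median animal had a spiny neuron list mean of 13.07 in ethanol and 12.96 in water. In such bulk tissue, fewer cells of a type and less RNA per cell cannot be told apart. The 3' minus 5' value, the mean log2 gap between 3' and 5' control probe sets for beta-actin, GAPDH and hexokinase, which grows as RNA breaks down, was 1.16 ± 0.11 in ethanol and 1.29 ± 0.15 in water (SD, n = 10 each, two-sided permutation test, p = 0.0386). Beta-actin alone gave 2.15 ± 0.18 in ethanol and 2.48 ± 0.33 in water, GAPDH 0.26 ± 0.07 and 0.33 ± 0.14, and hexokinase 1.07 ± 0.10 and 1.07 ± 0.16 in the same order.

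Cwc25 was the member with the largest difference in either direction. In yeast, the protein of this name joins the activated spliceosome and promotes the first chemical step of splicing. Its single probe set lay at 8.91 (lowest), 9.13 (median) and 9.32 (highest) in ethanol animals, against 8.41, 8.61 and 9.14 in water animals. All 10 ethanol animals lay above the water mean, and the groups overlapped through water animals 13 and 19, at 9.14 and 9.05. Cwc25 averaged 9.13 ± 0.13 in ethanol and 8.68 ± 0.25 in water (SD, n = 10 each), a difference of 0.45 (SE 0.085, 95% interval 0.28 to 0.63).

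This difference passed the threshold of 0.05 after adjustment over all probe sets (limma), as it had to, being the reason the family was in view. It did not pass at equal 3' minus 5' value, where it was 0.44 (adjusted p = 0.231), nor without water animals 12, 17 and 20, where it was 0.38 (adjusted p = 0.121). It passed in 9 of the 20 fits that each left out 1 animal, at 0.42 to 0.51. Without animals 12 and 13 it was 0.51. Without water animals 17, 19 and 20, those with the lowest spiny neuron list means, it was 0.44. With that list mean as a term it was also 0.44. The part of these markers in the difference was not tested further. The arrays were deposited in 3 runs that alternate ethanol and water, which no label calls batches, and within them Cwc25 was higher in ethanol by 0.26, 0.47 and 0.81.

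**Figure D1:**
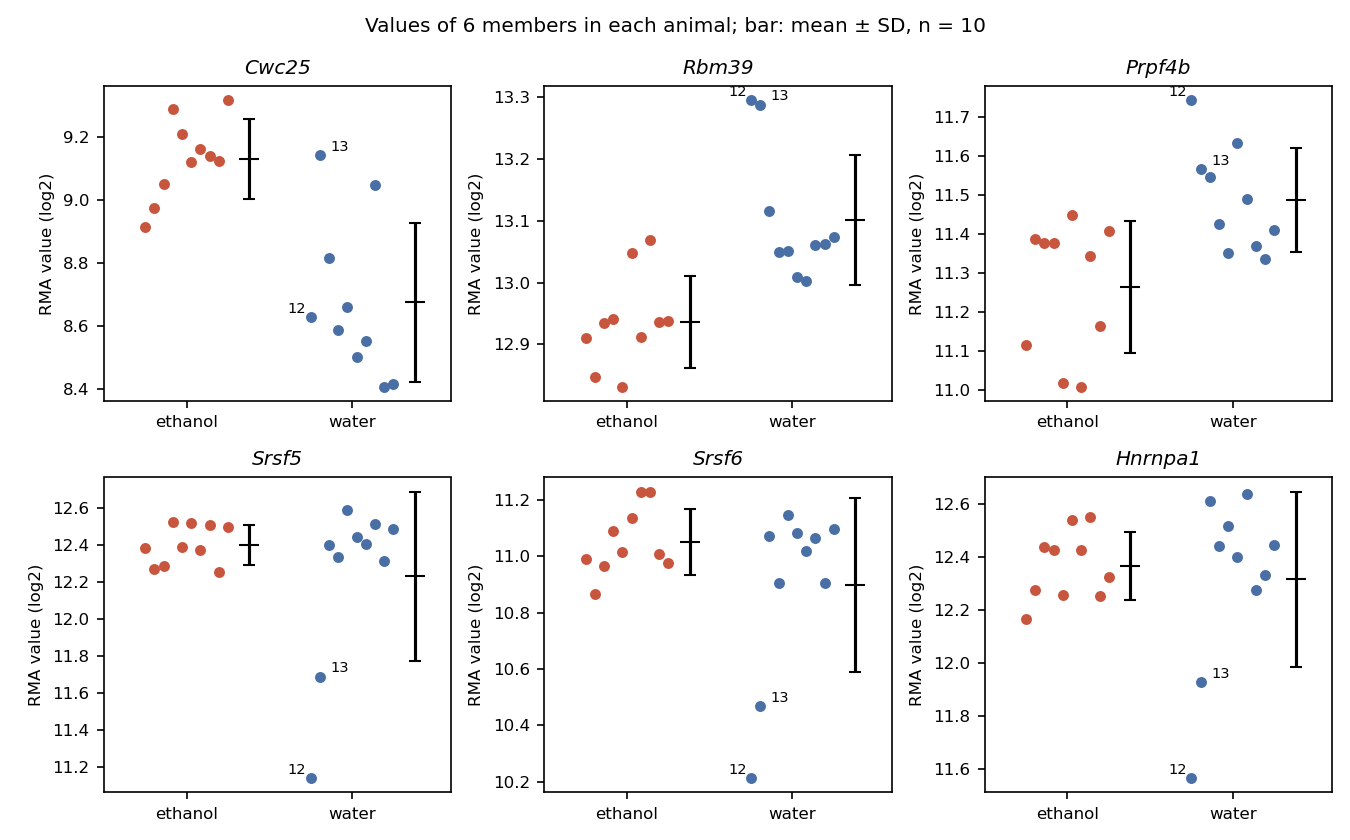
RMA values (log2, vertical axis) of 6 members in each of 10 ethanol and 10 water animals, with bars for mean ± SD and water animals 12 and 13 numbered. Cwc25 separates the groups but for water animals 13 and 19, Rbm39 and Prpf4b lie lower in ethanol with overlap, and the low water values of Srsf5, Srsf6 and Hnrnpa1 belong to animals 12 and 13.

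The promoter of Cwc25 is shown because it is the member the group comparison called, next to those of Cwc22 and Cwc27, the other Cwc genes with an entry in the RefSeq table used (Cwc15 has none there). Each sequence runs from 250 bases before to 50 bases after the annotated start, on the minus strand of GRCr8: Cwc25 at chr10:83256673-83256972, Cwc22 at chr3:83271157-83271456 and Cwc27 at chr2:37709289-37709588. Capitals mark matches to TGANTCA, the letters bound by AP-1 (Fos and Jun dimers), and to TGACGT or its reverse complement, a part of the cyclic AMP response element. These motifs were picked with the Cwc25 sequence in view.
Cwc25: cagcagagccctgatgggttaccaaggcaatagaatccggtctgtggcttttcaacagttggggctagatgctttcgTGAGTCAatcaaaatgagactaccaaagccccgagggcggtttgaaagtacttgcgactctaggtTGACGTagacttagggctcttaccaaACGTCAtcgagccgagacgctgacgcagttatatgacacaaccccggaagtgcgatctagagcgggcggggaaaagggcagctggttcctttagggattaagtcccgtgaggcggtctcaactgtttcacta
Cwc22: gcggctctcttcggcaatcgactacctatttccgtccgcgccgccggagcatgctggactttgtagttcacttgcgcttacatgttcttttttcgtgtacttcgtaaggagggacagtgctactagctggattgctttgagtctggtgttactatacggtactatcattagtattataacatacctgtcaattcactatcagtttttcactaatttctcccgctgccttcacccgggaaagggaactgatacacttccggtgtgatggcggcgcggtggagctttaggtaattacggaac
Cwc27: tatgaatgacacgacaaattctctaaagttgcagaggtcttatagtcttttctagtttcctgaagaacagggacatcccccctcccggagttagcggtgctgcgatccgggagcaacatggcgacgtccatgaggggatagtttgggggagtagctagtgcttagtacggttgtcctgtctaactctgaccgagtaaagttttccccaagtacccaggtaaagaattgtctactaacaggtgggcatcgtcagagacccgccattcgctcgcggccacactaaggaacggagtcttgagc
Cwc25 holds TGAGTCA with its first base at -173 from the start, TGACGT at -108 and ACGTCA at -82, while Cwc22 and Cwc27 hold neither motif. It also holds GGGCGG, the GC box of Sp1, at -139 and -19, printed in lower case.

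Such letters also lie in promoters of other genes. With both strands searched, TGANTCA lay in 3 of 59 member promoters (5.08%), against 4.57% of the 9001 promoters of genes tested. TGACGT lay in 12 (20.3%, against 11.97%), and GGGCGG in 34 (57.6%, against 63.8%). The full element TGACGTCA, of which TGACGT is a part, lay in 1 member promoter (1.69%, against 3.28%). A match describes the letters and not a binding site.

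Measured genes up to 3 places from Cwc25 in the order of the GRCr8 annotation did not share its difference past the threshold. The gene between Cwc25 and Rpl23 in that order is not among those measured. Of its neighbours with a probe set above the filter, Pip4k2b, a phosphoinositide kinase, differed by -0.04 and 0.04 on its probe sets. Psmb3, a proteasome subunit, differed by -0.05, Pcgf2, a Polycomb protein, by -0.15 and -0.03, Rpl23, a ribosomal protein, by -0.02 and Lasp1, an actin-binding protein, by -0.05. Their adjusted p-values lay between 0.485 and 0.896 (limma).

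The other Cwc members showed no such difference. Cwc15, a component of the Prp19-related complex, averaged 11.23 ± 0.04 in ethanol and 11.29 ± 0.07 in water, a difference of -0.07 (95% interval -0.14 to 0.00). Cwc22, which recruits the exon junction complex, averaged 8.89 ± 0.10 in ethanol and 8.84 ± 0.14 in water (0.05, interval -0.07 to 0.16). Cwc27, a cyclophilin-like spliceosome protein, averaged 8.52 ± 0.13 in ethanol and 8.49 ± 0.14 in water (0.03, interval -0.09 to 0.15).

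Across the family, 1 of 65 members passed as higher in ethanol (Cwc25) and 0 as lower. Over all 10746 genes tested, 0.0838% passed as higher and 0.00931% as lower, and 0.0966% of all probe sets passed. Since Cwc25 chose the family, nothing is read from its count. At an unadjusted p under 0.05 there were 2 higher members (Cwc25 and Sf3a3) and 6 lower, or 12.3%, near the 10% of all genes. Differences were positive for 33 members and negative for 32, with a median of 0.00046 against 0.00016 over all genes. The 95% interval of the difference lay within ±0.25 for 58 of 65 members (89.2%), against 76.5% of all genes.

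**Figure D2:**
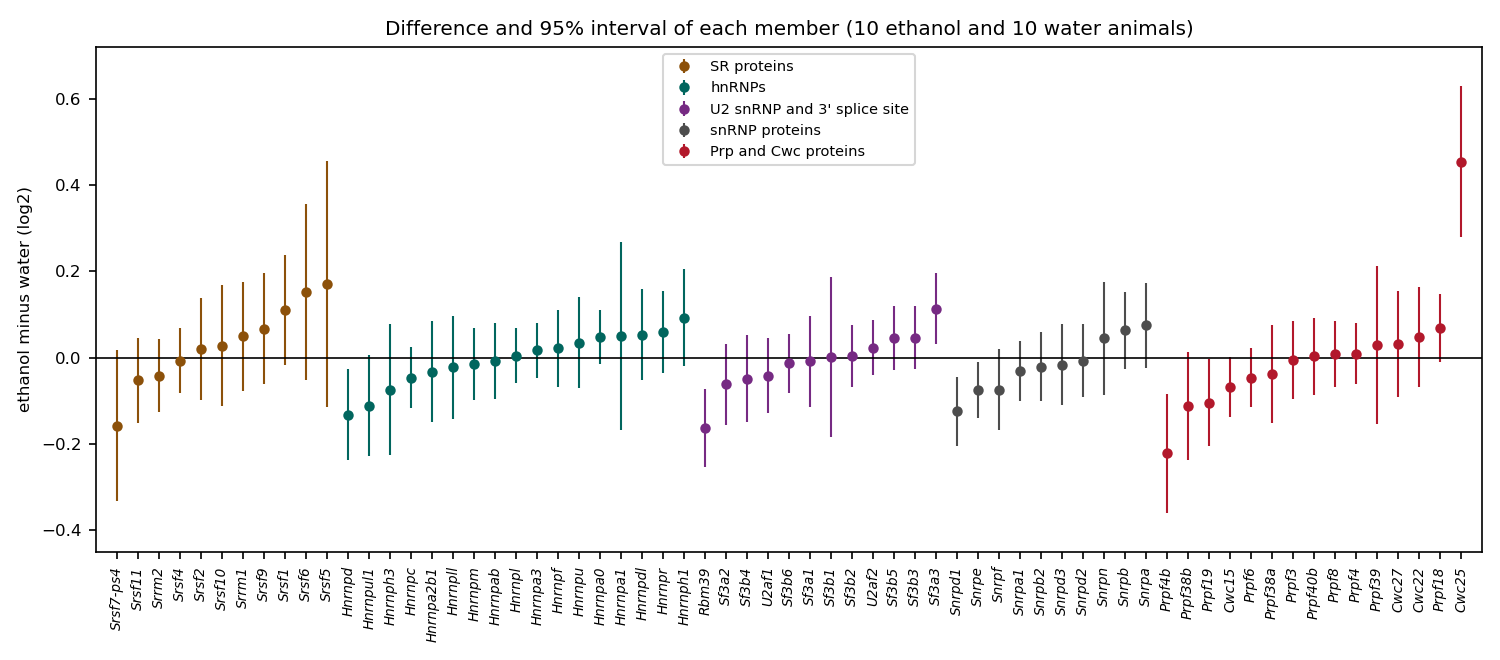
Ethanol minus water difference (log2, vertical axis) with its 95% interval for each of the 65 measured members, coloured by role and ordered by difference within a role. Cwc25 stands at 0.45 and the other members lie between -0.22 and 0.17.

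Among SR proteins, 0 of 11 passed, with 7 positive and 4 negative differences and a median of 0.03. Srsf5, an SR protein, had 12.26, 12.39 and 12.52 (lowest, median and highest) in ethanol, against 11.14, 12.40 and 12.59 in water. The medians nearly coincide, and the low water mean comes from animals 12 and 13. Its difference of 0.17 (95% interval -0.12 to 0.46) was -0.03 without them. Srsf6, which regulates exons of Tau transcripts among others, differed by 0.15 (adjusted p = 0.525), and by 0.01 without animals 12 and 13. Srsf1, the founding SR protein, differed by 0.11 (adjusted p = 0.464) and by 0.03 without them. Srsf7-ps4 was lower, by -0.16 (adjusted p = 0.452), with 7 of 10 ethanol animals below the water mean. Its difference was -0.24 (adjusted p = 0.235) without animals 12 and 13, so it grew where those of Srsf5, Srsf6 and Srsf1 shrank.

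The hnRNPs had 0 of 17 past the threshold, 9 positive and 8 negative differences, and a median of 0.0046. Hnrnpd (AUF1), which binds AU-rich elements in mRNAs, had 10.92, 11.09 and 11.23 in ethanol, against 11.09, 11.22 and 11.55 in water (lowest, median and highest). All ethanol values lay below the water mean, which the highest water value, in animal 20, raises, and the groups overlap. Its difference was -0.13 (95% interval -0.24 to -0.03, adjusted p = 0.34). Hnrnpul1 differed by -0.11 (adjusted p = 0.429), or by -0.07 without water animal 20, and Hnrnph1, which binds G-rich runs, by 0.09 (adjusted p = 0.486). Hnrnph1 was above the water mean in all 10 ethanol animals, with a difference of 0.03 without animals 12 and 13.

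Among proteins that act at the 3' splice site, 0 of 12 passed, and 6 differences were positive and 6 negative. Rbm39, a coactivator related to U2af2, had the smallest p of all members after Cwc25, with 12.83, 12.94 and 13.07 in ethanol and 13.003, 13.06 and 13.29 in water (lowest, median and highest). Ethanol animals 6 and 8, at 13.05 and 13.07, reached into the water range, and water animals 12 and 13 were the 2 highest of 20, both at 13.29. The difference was -0.16 (95% interval -0.25 to -0.07, adjusted p = 0.224), and -0.12 without these animals. Sf3a3, a subunit of the U2 snRNP, had 10.18, 10.38 and 10.49 in ethanol and 10.12, 10.27 and 10.34 in water, and 9 of 10 ethanol animals lay above the water mean. It differed by 0.11 (95% interval 0.03 to 0.20, adjusted p = 0.307). Sf3a2, of the same SF3a complex, differed by -0.06 (adjusted p = 0.571), or by -0.04 without ethanol animal 7.

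The snRNP proteins had 3 positive and 7 negative differences, 0 of 10 past the threshold and a median of -0.02. The 3 of smallest p belong to the Sm ring that encloses the snRNA. Snrpd1 had 10.28, 10.47 and 10.56 in ethanol and 10.41, 10.60 and 10.62 in water (lowest, median and highest), with 9 of 10 ethanol animals below the water mean and overlapping groups. Its difference was -0.12 (95% interval -0.21 to -0.04, adjusted p = 0.287), while its further probe set differed by -0.05. Snrpe differed by -0.08 (adjusted p = 0.364) and Snrpf by -0.07 (adjusted p = 0.501). Snrpb and Snrpd3, also of the ring, differed by 0.06 and -0.02, and Snrpa, a protein of the U1 snRNP, by 0.07, or by 0.05 without water animal 17.

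Of the 15 Prp and Cwc members, 8 had positive and 7 negative differences, with a median of 0.0031. Prpf4b, a kinase of the spliceosome, had the lowest difference of all members. Its values were 11.01, 11.36 and 11.45 in ethanol and 11.34, 11.46 and 11.74 in water (lowest, median and highest). Ethanol animals 1, 5, 7 and 9 lay at 11.12, 11.02, 11.01 and 11.17, below every water animal, and the other 6 lay within the water range. The difference was -0.22 (95% interval -0.36 to -0.08, adjusted p = 0.272), and it was -0.01 over the mean of the 4 Prpf4b probe sets. At equal 3' minus 5' value, the difference of the representing probe set was -0.13 (95% interval -0.27 to 0.002). Prpf19, the ubiquitin ligase of the complex named after it, differed by -0.10 (adjusted p = 0.402), and Prpf8, the protein at the core of the spliceosome, by 0.01 (interval -0.07 to 0.09).

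The spread between animals was mostly larger in water. The SD was larger in water than in ethanol for 56 of 65 members (86.2%), against 81.2% of all genes, with a median SD of 0.073 in ethanol and 0.116 in water. All 11 SR genes had the larger SD in water, and the hnRNPs did in 15 of 17 cases. No member had groups that did not overlap, as 0.0651% of all genes had.

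A list of 129 other splicing genes, 115 of them measured, was set beside the family. None passed in either direction, 70 differences were positive and 45 negative, the median was 0.01, and at an unadjusted p under 0.05 there were 2 higher and 5 lower (6.09%, against 10% of all genes). Rbm17, a 3' splice site factor, averaged 10.81 ± 0.07 in ethanol and 10.95 ± 0.08 in water (adjusted p = 0.228). Ptbp3, a polypyrimidine tract binding protein, differed by -0.15 (adjusted p = 0.327) and Celf5, a neuronal CELF protein, by 0.15 (adjusted p = 0.359). Snrnp25, of the minor spliceosome, differed by -0.07, Zrsr2, which recognises minor introns, by 0.14 and Arglu1, an arginine-rich splicing coactivator, by 0.24. Arglu1 varied far more in water, at 12.89 ± 0.34, than in ethanol, at 13.13 ± 0.07 (SD, n = 10 each).

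For 21 members more than 1 probe set lay above the filter, and for some of them the probe sets had differences of both signs. Further Rbm39 probe sets differed by 0.04, -0.06, 0.13 and -0.02, where the representing one gave -0.16. Further Prpf4b probe sets differed by -0.03, 0.16 and 0.04 against -0.22, and further Prpf38b probe sets by 0.26 and -0.04 against -0.11. Further Hnrnpu probe sets differed by 0.33 and -0.08 against 0.03. On the one at 0.33, water animals 12 and 13 lay at 9.30 and 9.78, with 10.31 or more in the other animals. Animals 12 and 13 were also the lowest on the Rbm39 probe set at 0.13 and the Prpf4b probe set at 0.16. They were the highest on the Rbm39 probe sets at -0.06 and -0.02. The part of these animals in the differences of further probe sets was not tested. Both further probe sets of Hnrnpa1, a repressor of exon use, differed by -0.14, against 0.05, which became -0.03 without water animal 12. Others lay close together, as for Srsf6 at 0.15, 0.16 and 0.17. The positions of these probes in the transcripts were not used here.

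The further Prpf38b probe set had 9.57, 9.71 and 9.83 in ethanol and 9.12, 9.45 and 9.99 in water (lowest, median and highest). All 10 ethanol animals lay above the water mean, inside the wider water range. Its difference of 0.26 did not pass (adjusted p = 0.283). To compare probe sets of one gene, the further minus the representing value was fitted over all 4071 such pairs of the array, a fit chosen after seeing the data. For ethanol against water, 0 of 39 member pairs passed, against 0.0983% of all pairs. At an unadjusted p under 0.05 there were 11 member pairs (28.2%, against 16.5%), and 31 of 39 pairs had a positive difference (79.5%, against 60.9%). Pairs of one gene share a representing probe set and so are not separate.

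**Figure D3:**
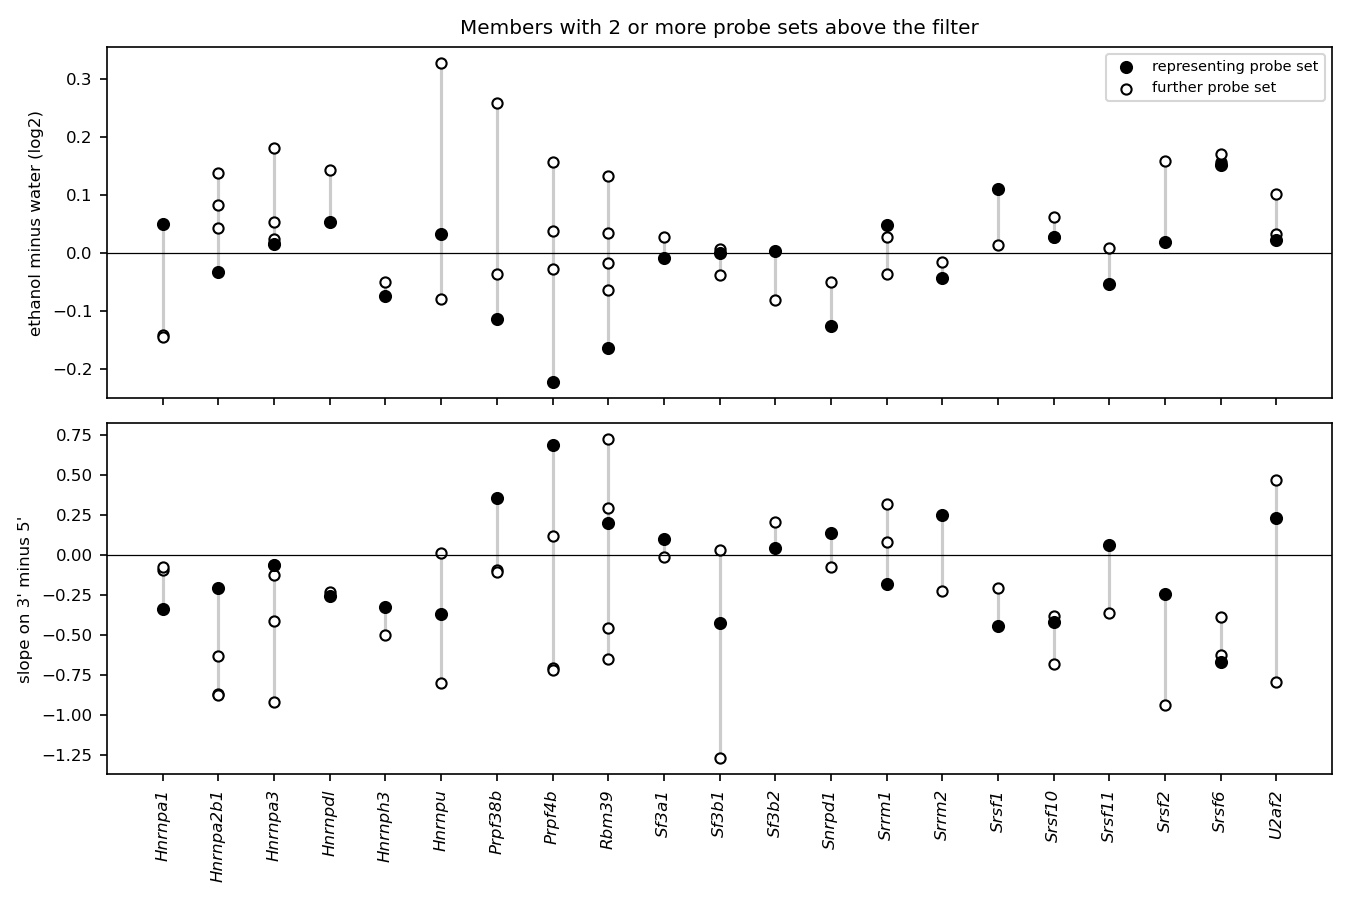
Ethanol minus water difference (log2, upper panel) and slope on the 3' minus 5' value (log2 per log2, lower panel) for every probe set of the 21 members with more than 1, with filled points for the representing probe set. In the upper panel Prpf4b runs from -0.22 to 0.16 and Rbm39 from -0.16 to 0.13, and in the lower panel further probe sets reach -1.27.

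The relation to the 3' minus 5' value was measured as a slope, with the group as a term. It is the log2 change of a probe set per log2 unit of that value. A negative slope means a lower value on arrays with more 3' bias. By 1 probe set per gene, 0 members passed, against 0.251% of all genes, and 3 members had an unadjusted p under 0.05 (4.62%, against 6.76%). Slopes were negative for 35 members and positive for 30. Over all genes 49.2% of slopes were negative, with a median of 0.0055. Negative slopes were found for 15 of 17 hnRNPs (median -0.19), 8 of 11 SR genes (median -0.22) and 4 of 15 Prp and Cwc members (median 0.11), and roles were not tested against each other. Without water animals 12 and 13 the hnRNPs had 13 negative slopes (median -0.10) and the SR genes 4, with a median of the opposite sign (0.10), against 42.9% of all genes.

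Hnrnpf, which binds G-rich runs, had the slope of smallest p, at -0.45 (SE 0.15, adjusted p = 0.181). Next came Prpf4b at 0.69 (adjusted p = 0.197), whose slope turned to -0.15 over the mean of its probe sets, and Snrpa at -0.41 (adjusted p = 0.394). Srsf5 had the most negative slope of all members, at -0.95 with an SE of 0.53 (adjusted p = 0.581), and Srsf6 had -0.67. Without water animals 12 and 13 these became -0.18 and -0.15. U2af2, which binds the polypyrimidine tract, had 0.23, and -0.03 over the mean of its probe sets. Hnrnpu had -0.37 and Srsf1 -0.45, and without animals 12 and 13 they had -0.15 and -0.16. Hnrnpr had -0.34, Prpf18, a factor of the second step, -0.29 and Prpf3, of the U4/U6 snRNP, 0.30. The slope of Cwc25 was -0.11 (SE 0.35, adjusted p = 0.947).

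Over all member probe sets, 1 of 104 passed for the slope, near the 0.899% of all probe sets, so nothing is read from the count. The probe set that passed is a further one of Srsf2, the SR protein that also regulates its own message. The representing probe set of Srsf2 did not pass (-0.25). The further one had 10.30, 10.40 and 10.66 in ethanol and 9.90, 10.31 and 10.53 in water (lowest, median and highest), lowest in water animals 12, 13 and 18. Its slope was -0.94 (SE 0.21, adjusted p = 0.0352), and -0.71 without animals 12 and 13, where it did not pass. It was -1.01 without the 2 arrays farthest from the median 3' minus 5' value and -0.21 with hexokinase alone as the control, and passed in neither. In the pair fit, 3 member pairs passed for the slope, against 10.3% of all pairs. All 3 were negative, as were 404 of the 419 pairs that passed over the array. They were the further probe sets of Srsf2 (-0.70, adjusted p = 0.0049), Prpf4b (-1.40, adjusted p = 0.0134) and U2af2 (-1.02, adjusted p = 0.0204).

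**Figure D4:**
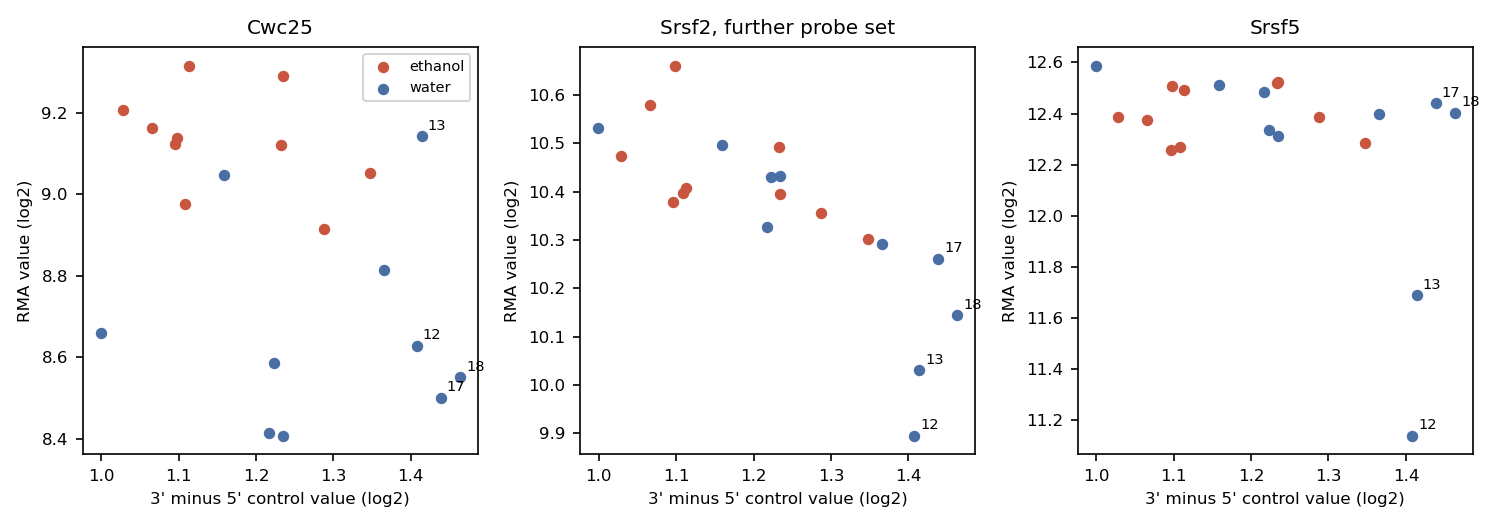
RMA value (log2, vertical axis) of Cwc25, of the further Srsf2 probe set and of Srsf5 against the 3' minus 5' control value of the array (log2, horizontal axis), 1 point per animal, with water animals 12, 13, 17 and 18 numbered. The further Srsf2 probe set is lower where the control value is higher. Its slopes were -0.59 in ethanol and -1.11 in water animals taken alone, and neither passed (limma, adjusted p = 0.935 and 0.45). The lowest Srsf5 values are those of water animals 12 and 13.

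When the 3' minus 5' value entered as a term, 0 members passed for ethanol against water, against 0.0186% of all genes, and 5 members had an unadjusted p under 0.05 (7.69%, against 6.05%). The slope did not pass as different between ethanol and water for any member, nor for any gene (0%), and at an unadjusted p under 0.05 it differed for 0 members and 85 genes (limma).

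Water animals 12 and 13 were low for a share of the family. They were picked after their values had been seen, so what follows is a description without a test. They were the 2 lowest of the 20 animals for 15 of 65 members (23.1%), against 7.71% of all genes, and the 2 highest for 1, Rbm39 (1.54%, against 1.85%). Over all member probe sets they were the 2 lowest for 29 of 104 (27.9%), against 6.33% of all probe sets. The 15 members are Srsf1, Srsf2, Srsf5, Srsf6, Srsf9, Srsf11 and Srrm1 among the SR genes, Hnrnpa1, Hnrnph1, Hnrnpm and Hnrnpu, and also Sf3b1, Snrpb, Prpf18 and Prpf39. The low values are not particular to the family. For the regulators and kinases among the other splicing genes, the list mean was 10.99 and 11.14 in animals 12 and 13, with 11.18 or more in the others. For the other spliceosome proteins animal 12 was lowest at 10.176, while animal 13, at 10.207, lay within the range of the others.

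Srsf5 lay at 11.14 in animal 12 and 11.69 in animal 13, against 12.26 or more in the other 18 animals. Srsf6 lay at 10.21 and 10.47, with 10.86 or more in the others, and Hnrnpa1 at 11.56 and 11.93, with 12.17 or more. Sf3b1, the subunit that holds the branch point, lay at 11.62 and 12.03, with 12.18 or more. In each case animal 12 was the lower of the pair. The probe sets of one gene could part ways in these animals. For Rbm39 they were the 2 highest on 3 probe sets and the 2 lowest on 2, at 12.28 and 12.58 on one of these, with 12.70 or more in the others. For Prpf4b animal 12 was the highest of 20 on the representing probe set, at 11.74, and the lowest on another, at 6.66, with animal 13 at 7.52 and the others at 7.95 or more. Of the Srrm2 probe sets, the further one was at 10.57 and 10.88, with 11.17 or more in the others, while the representing one was at 14.59 and 14.44, against a median of 14.35.

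Both animals had a 3' minus 5' value of 1.41, which lies in the upper part of the water range of 0.999 to 1.46, and its part in their low values was not tested. The mean of 3 measured of 6 listed nuclear-retained RNAs (Meg3, Miat and Snhg11) was 11.03 in animal 12 and 11.20 in animal 13, against 11.84 or more in the other 18. It ranged from 11.91 to 12.45 in ethanol and from 11.03 to 12.70 in water, and its part in the low values was not tested. With that mean as a term, Cwc25 differed by 0.48 between ethanol and water.

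**Figure D5:**
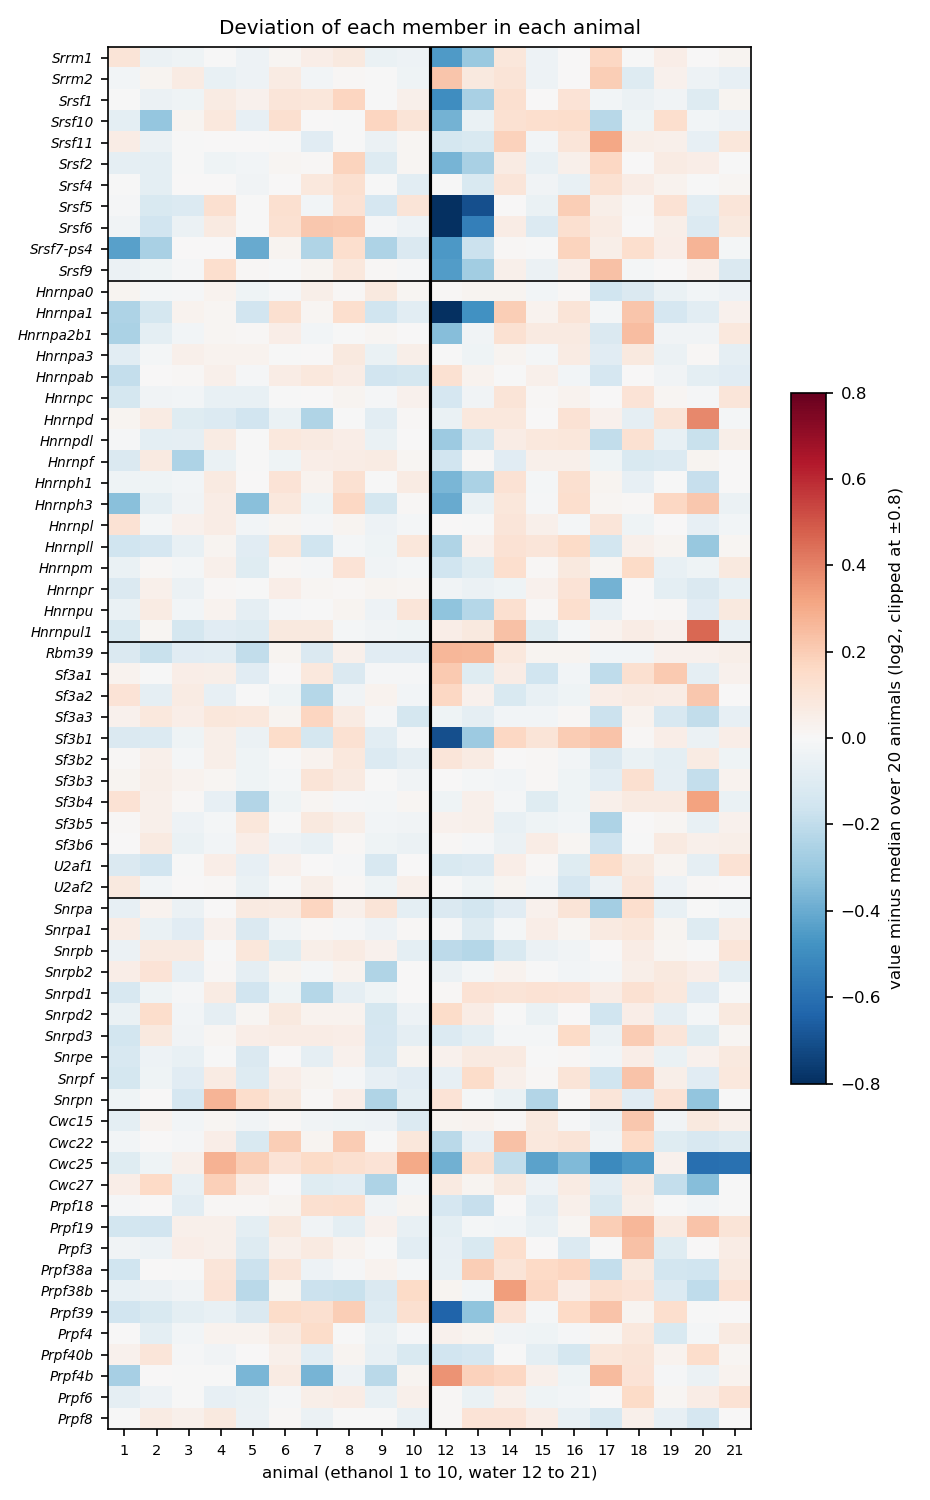
Deviation of each of the 65 members (rows, grouped by role in the order SR, hnRNP, 3' splice site, snRNP, Prp and Cwc) from its median over 20 animals (columns, ethanol 1 to 10 then water 12 to 21), in log2 and clipped at ±0.8. The columns of water animals 12 and 13 are low for many SR genes and hnRNPs, Cwc25 is low in most water animals, and single members stand out in water animals 17 and 20.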

How the data were processed

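Total RNA from the nucleus accumbens shell of 20 P rats was labelled from the 3' end and hybridised to 1-colour Affymetrix arrays, per the labels' protocols. The authors deposited log2 values made with RMA, per the submitters' processing notes. Which program, version and chip definition were used is not given in the sources used here. RMA pulls the differences of dim probe sets towards 0, and a shift of most genes would be lost in its normalization. Depth has no meaning for arrays, and their number limits the precision. All 20 sample columns were used (0 left out), and animal 11 was not analysed here.

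Probe sets were named by the platform annotation. All 67 members matched a RefSeq gene of GRCr8 by identifier, and 0 symbols differed. A further 8 probe sets that name several genes with a member prefix were not used. The 57 controls and 33.3% of the probe sets, those of lowest mean over the 20 arrays (below 6.65), were left out, leaving 20695. Groups, slopes and their difference were fitted with lmFit and eBayes of limma 3.58.1 (R 4.3.3, two-sided tests) over all of these, with Benjamini-Hochberg adjustment over all and a threshold of 0.05. The fits were tested on simulated data with known changes, with noise drawn separately for each array and equal in both groups. Such data lack the wider water spread and the arrays that stood apart, so this checks the code only. The 3' minus 5' value was compared between groups with 100000 permutations.

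Members and lists were chosen with earlier results of these data known. Named members were Cwc25, those past the threshold in any fit, the 3 of smallest p per role for the difference and for the slope, and those with a further probe set of opposite sign at an unadjusted p under 0.05. Other members were named after their values were seen, as were the comparison of probe sets of one gene and the settings without animals 12 and 13 or with marker means as terms. Alternatives changed the filter, normalization, variance model, weights, probe set choice, control genes and arrays. The labels number the animals separately, so no samples were paired.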

Additional observations from a re-analysis of the deposited data

Results flagged for a closer look

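Among the 28 named members, 56 groups of 10 animals were examined for a lowest or highest animal far from the rest of its group, and 4 had one, 1 in ethanol and 3 in water. Chance flags about 1 in 20 groups. Sf3a2, a subunit of the U2 snRNP, was lowest in ethanol animal 7 at 9.62, with the next ethanol animal at 9.78. Hnrnpd was highest in water animal 20 at 11.55, with the next water animal at 11.28. Hnrnpr was lowest in water animal 17 at 12.04, with the next at 12.31. Sf3b6, which contacts the branch point, was lowest in the same animal at 11.71, with the next at 11.82. Water animals 17 and 20 are also among the arrays with the lowest correlation to the others. Leaving out each of these animals in turn gave differences of -0.04 for Sf3a2, -0.10 for Hnrnpd, 0.02 for Hnrnpr and -0.03 for Sf3b6, and none passed the threshold.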

How the results depend on the processing

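Cwc25, the single member past the threshold for ethanol against water (difference 0.45), passed in 13 of 15 other settings and in 9 of 20 settings that left out 1 animal, where its difference ran from 0.42 to 0.51 and the count of members from 0 to 1. Since Cwc25 chose the family, these counts describe its call and do not test it. The settings without animals 12 and 13 alone or with a marker mean as a term, in which it passed, were added after the data were seen. Leaving out any one of ethanol animals 4, 5, 6, 7, 9 and 10 or of water animals 12, 15, 17, 18 and 21 ended the call. Without water animals 12, 17 and 20 the count was 0 and the difference 0.38 (adjusted p = 0.121), and at equal 3' minus 5' value the difference was 0.44 (adjusted p = 0.231). In that fit, in which 0 members passed, 1 did (Cwc25) with array weights (0.43), without water animals 12, 13, 17, 19 and 20 (0.51), with hexokinase alone as the control (0.45) and without animals 12 and 13 (0.47). Leaving out 1 animal gave 0.40 to 0.51 there and a count of 0 to 1, the 1 being without water animal 13. For the slope, in which 0 members passed, 1 did with array weights (Hnrnpf, -0.52). The slope of the further Srsf2 probe set (-0.94) no longer passed with no filter (-0.94), with the deposit run as a block (-0.82), without animals 12, 13, 17, 19 and 20 (-0.70), with GAPDH alone (-0.96) or hexokinase alone (-0.21), without the 2 arrays farthest in 3' minus 5' value (-1.01), without animals 12 and 13 (-0.71), and in ethanol alone (-0.59) or water alone (-1.11). It passed in 12 of 20 settings that left out 1 animal, at -1.01 to -0.82. The cause of these changes was not tested. The median difference over members stayed between -0.027 and 0.0076. Differences of the other 27 named members moved by less than the SD between single animals in 942 of 945 values, and 0 passed. The exceptions were the means over all probe sets of Prpf4b, Rbm39 and Prpf38b (-0.01, -0.02 and 0.04). That SD is wide beside the SE of a difference, so the count says little, and a change of sign could fall within it. Over the settings other than leaving out 1 animal, Hnrnpa1 ran from -0.17 to 0.06 and Srsf5 from -0.04 to 0.25. Slopes of the 15 named members kept within their SE in 523 of 570 values, and 1 passed. Dim probe sets such as those of Srsf3 and Srsf7 limit what RMA values can show.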
